A study of Mus musculus with 6 samples.

Results

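The interferon-stimulated genes are the genes that cells switch on when they sense interferon, the cytokine of the antiviral response. The set described here holds 35 of the 53715 genes in the tables, chosen by gene symbol, and 34 of them carried enough reads to be tested among 16391 genes. The exception was *Cxcl10*, with 2 to 15 reads per library. The measured level of these genes differed from library to library within a genotype. No member was called between the genotypes or between the replicate numbers.

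The cells were calvarial cells of newborn C57BL/6J mice, grown for 7 days in osteogenic medium, which drives them into osteoblasts. The Wild-type group (WT1 to WT3) and the *Fam102a* KO group (KO1 to KO3) had 3 libraries each. KO cells lack exons 2 and 3 of *Fam102a* throughout the body, after a cross to *Actb*-Cre mice, so the deletion is not limited to osteoblasts, and no culture received interferon or a virus as far as the sources used here say. The libraries are labelled by number within each genotype, and the sources do not say whether a number is an animal, a litter or a dish, so p-values measure only the spread between these libraries.

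Interferon works in steps. Sensors such as RIG-I and MDA5 detect viral or misplaced nucleic acid and lead to the production of type I interferon, which binds the receptor chains Ifnar1 and Ifnar2 on the same or neighbouring cells. The receptor activates the kinases Jak1 and Tyk2, and a complex that contains Stat2 and Irf9 then enters the nucleus and binds an interferon-stimulated response element in the promoters of the target genes. In bone, interferon signalling is known mainly for restraining osteoclast formation, and resting cells of many tissues keep a low tonic level of these genes.

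Sequence was read at the promoters of the members, from RefSeq (GRCm38.p6), as 250 bases before to 50 bases after each start. Of the 35 members, 26 matched an entry. The core of the response element was searched as GAAANNGAAA on both strands (TTTCNNTTTC on the other strand), and runs of it may overlap. It occurred in 15 of the 26 members (57.7%) and in 3.99% of all 27025 genes with a promoter entry. Counted by promoter, 15 of 30 member promoters (50%) and 3.44% of 32851 promoters held it. A match is a run of letters and not a measured binding site. The windows below are those of 6 members that differed strongly between libraries (*Isg15*, *Ifit1*, *Ifit3*, *Bst2*, *Rsad2* and *Gbp3*) and of 2 that differed little (*Gbp2* and *Stat2*), so that the letters can be read beside the levels. Capitals mark the matches, and each run is written 5′ to 3′ on the strand of the gene.
Isg15: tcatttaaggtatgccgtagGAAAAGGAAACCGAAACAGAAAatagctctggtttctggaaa
Ifit1: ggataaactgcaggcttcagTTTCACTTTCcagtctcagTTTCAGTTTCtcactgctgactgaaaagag
Ifit3: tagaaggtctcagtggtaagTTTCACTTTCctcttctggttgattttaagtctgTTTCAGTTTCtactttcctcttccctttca
Bst2: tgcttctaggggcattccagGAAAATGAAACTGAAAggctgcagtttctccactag
Rsad2: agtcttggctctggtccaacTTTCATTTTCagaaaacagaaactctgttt
Gbp3: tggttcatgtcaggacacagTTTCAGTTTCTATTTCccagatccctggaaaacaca
Gbp2: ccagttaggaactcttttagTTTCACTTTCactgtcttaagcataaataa
Stat2: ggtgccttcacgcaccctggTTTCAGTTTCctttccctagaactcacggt
The windows lie at chr4:156200855-156200916 on the minus strand for *Isg15*, chr19:34640765-34640833 on the plus strand for *Ifit1* and chr19:34583353-34583436 on the plus strand for *Ifit3*. Those of *Bst2* and *Rsad2* lie on the minus strand, at chr8:71537567-71537622 and chr12:26456543-26456592. Those of *Gbp3*, *Gbp2* and *Stat2* lie on the plus strand, at chr3:142559979-142560034, chr3:142620584-142620633 and chr10:128270256-128270305. *Isg15* held 3 overlapping matches, *Bst2* and *Gbp3* 2 overlapping ones, and *Ifit1* and *Ifit3* 2 separate ones. *Rsad2*, *Gbp2* and *Stat2* held 1 match each. All 8 windows were chosen among members with a match, so they do not show how a match, or the number of matches, relates to spread.

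Levels were low to moderate. Per exon length, the mean RPKM over the 6 libraries ran from 0.101 for *Mx1* to 19.1 for *Bst2*, with *Isg15* at 14.8, *Ifi35* at 10.2 and *Gbp2* at 6.76. The tested libraries held 12212169 to 21210150 reads in genes, so 1 read is worth 0.0471 to 0.0819 CPM before scaling. The spread between libraries was wider than for most genes: the median biological coefficient of variation was 0.273 for the members and 0.188 for all genes tested, and 27 of the 34 lay above the median of all genes. Values below are CPM (counts scaled by TMM to a common library size) unless reads are named.

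The first role group is the ubiquitin-like modifier Isg15 and its protease Usp18. *Isg15*, which is attached to newly made proteins in infected cells, had 87, 223 and 229 reads in WT1 to WT3 and 315, 111 and 127 reads in KO1 to KO3. In CPM this was 7.38, 12.6 and 11.9 against 22.6, 5.48 and 6.81. KO1 was the highest library and KO2 the lowest, so the KO group enclosed the whole Wild-type group. The means were 10.6 ± 2.84 (SD, n = 3) and 11.6 ± 9.55 (SD, n = 3), and the log2 fold change, *Fam102a* KO over Wild-type, was 0.11 with an SE of 0.599 (adjusted p = 1.00, edgeR). *Usp18*, which also dampens the interferon receptor, was at 2.04, 6.35 and 6.83 CPM in the Wild-type libraries and at 9.42, 3.90 and 5.68 CPM in the KO libraries. Again KO1 was highest, but here WT1 was lowest. Of the *Usp18* reads, 50.3% were uniquely placed, and its exons share 124 bases with an antisense gene, so its level is less certain than that of *Isg15* (96.4%).

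The Ifit proteins bind viral RNA and block its translation, and their genes lie side by side on chromosome 19. *Ifit1* was at 5.68, 10.7 and 9.99 CPM in the Wild-type libraries and at 12.8, 2.91 and 7.56 CPM in the KO libraries. *Ifit3* was at 7.98, 10.4 and 13.4 CPM and at 17, 3.21 and 11.3 CPM. For both genes KO1 was the highest and KO2 the lowest of all 6 libraries, a 4.39-fold range within the KO group for *Ifit1* and a 5.29-fold range for *Ifit3*. *Ifit2* stood apart from its neighbours, with 7.81, 7.03 and 7.04 CPM against 7.77, 6.91 and 10.3 CPM. Its highest library was KO3, and KO1 was level with WT1. Only 54.0% of the *Ifit3* reads were uniquely placed, whereas 94.1% of the *Ifit1* reads were.

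**Figure D1:**
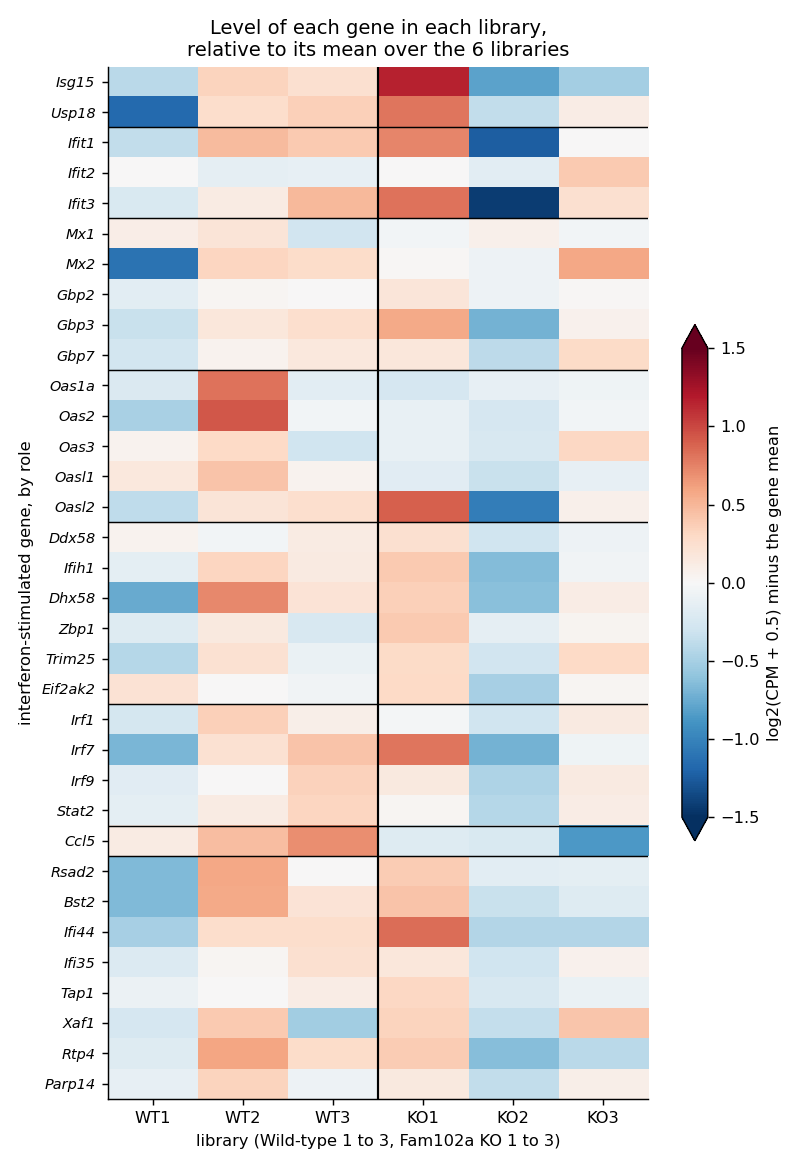
Level of each of the 34 tested genes in each library, as log2(CPM + 0.5) minus the mean of the gene over the 6 libraries (red, above the mean; blue, below), with genes grouped by role and the vertical line between the genotypes. KO2 is the lowest library for 19 genes and KO1 the highest for 14, and no block of columns separates the genotypes.

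The antiviral GTPases comprise the Mx proteins, which trap viral nucleocapsids, and the guanylate-binding proteins, which attack the membranes around microbes. *Gbp3* followed *Ifit1*, with 4.50, 6.58 and 7.04 CPM in the Wild-type libraries and 8.84, 3.36 and 6.11 CPM in the KO libraries. *Gbp2* was the steadiest of the group, between 15.8 and 20.1 CPM in all 6 libraries, and *Gbp7* ran from 6.82 to 11.2 CPM. *Mx1* was near the limit of detection, with 9 to 15 reads per library. *Mx2* had 5 reads in WT1 and 21 to 46 reads in the other libraries. Part of the *Gbp7* exons, 637 bases, is shared with a second gene on the same strand.

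The active enzymes of the oligoadenylate synthetase family make the signal that activates the RNA-degrading enzyme RNase L. *Oas1a* was at 2.80, 6.24 and 2.95 CPM in the Wild-type libraries and at 2.73, 3.01 and 3.16 CPM in the KO libraries, so that WT2 alone stood above the other 5. *Oas2* had the same single high library, with 3.35 CPM in WT2 and 0.933 to 1.45 CPM elsewhere. *Oasl2* instead followed *Isg15*, with 6.70, 10.2 and 10.7 CPM against 17, 4.05 and 9.38 CPM. *Oas3* (15 to 30 reads) and *Oasl1* (7 to 18 reads) were low. *Oasl1* was one of 2 members, with *Ccl5*, whose Wild-type libraries (0.673 to 1.02 CPM) all lay above the KO libraries (0.395 to 0.536 CPM), and its log2 fold change was −0.78 with an SE of 0.416 (adjusted p = 0.941, edgeR).

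The nucleic acid sensors and their partners summed to between 73.9 CPM in KO2 and 121.7 CPM in KO1. *Ddx58* (RIG-I), *Ifih1* (MDA5) and *Dhx58* (LGP2, which tunes both) recognise viral RNA, *Zbp1* senses nucleic acid in the Z form, *Trim25* activates RIG-I, and *Eif2ak2* encodes the kinase PKR that halts translation. All 6 were higher in KO1 than in WT1 and lower in KO2 than in WT2. *Ddx58* was at 33.5, 31.4 and 35.2 CPM in the Wild-type libraries and at 38.3, 26.3 and 30.8 CPM in the KO libraries, a narrow range in which KO1 and KO2 were still the ends. *Ifih1* ran from 6.91 CPM in KO2 to 14.7 CPM in KO1. *Dhx58* was low in both WT1 (3.22 CPM) and KO2 (3.56 CPM) and reached 9.81 CPM in WT2. *Eif2ak2* was at 33.1, 28.4 and 27.4 CPM against 35.1, 19.95 and 29.1 CPM, so both libraries of number 1 were above all others.

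Among the transcription factors, *Irf7*, which amplifies interferon production, varied most, with 3.22, 6.52 and 7.51 CPM in the Wild-type libraries and 9.92, 3.16 and 5.20 CPM in the KO libraries. *Stat2* and *Irf9*, subunits of the complex that binds the response element, were steadier and highest in WT3: *Stat2* ran from 15.2 CPM in KO2 to 25.9 CPM in WT3, and *Irf9* from 13.0 CPM in KO2 to 23.04 CPM in WT3. *Irf1*, which also answers interferon gamma, ran from 9.78 CPM in KO2 to 15.6 CPM in WT2. KO2 was thus the lowest library for all 4 factors.

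The chemokines that recruit T cells were scarce. *Ccl5* had 12, 25 and 34 reads in the Wild-type libraries and 10, 14 and 5 reads in the KO libraries, or 1.02, 1.42 and 1.76 CPM against 0.719, 0.691 and 0.268 CPM. The groups did not overlap. *Cxcl10* had 3, 7 and 15 reads against 2, 11 and 3 reads, too few to be tested, and only 26.8% of its reads were uniquely placed.

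The remaining 8 effectors act at different points of infection. *Bst2* (tetherin, which holds budding virus at the membrane) was at 10.4, 25.0 and 19.4 CPM in the Wild-type libraries and at 22.6, 13.1 and 14.5 CPM in the KO libraries. *Rtp4*, a chaperone of receptors, was at 9.33, 16.4 and 13.1 CPM against 14.1, 6.72 and 7.99 CPM. For both genes WT2 was the highest library and KO1 was the highest of its group. *Ifi44* had 21, 59 and 65 reads against 73, 38 and 35 reads, and *Rsad2* (viperin) 4, 26 and 16 reads against 17, 14 and 13 reads. *Tap1*, the peptide transporter of antigen presentation, and *Ifi35* were steady, between 17.9 and 26.7 CPM and between 15.1 and 22.2 CPM. *Xaf1*, a pro-apoptotic factor, ran from 6.89 to 13.6 CPM and *Parp14*, an ADP-ribosyltransferase, from 7.31 to 12.2 CPM. All 8 were higher in KO1 than in WT1 and lower in KO2 than in WT2.

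**Figure D2:**
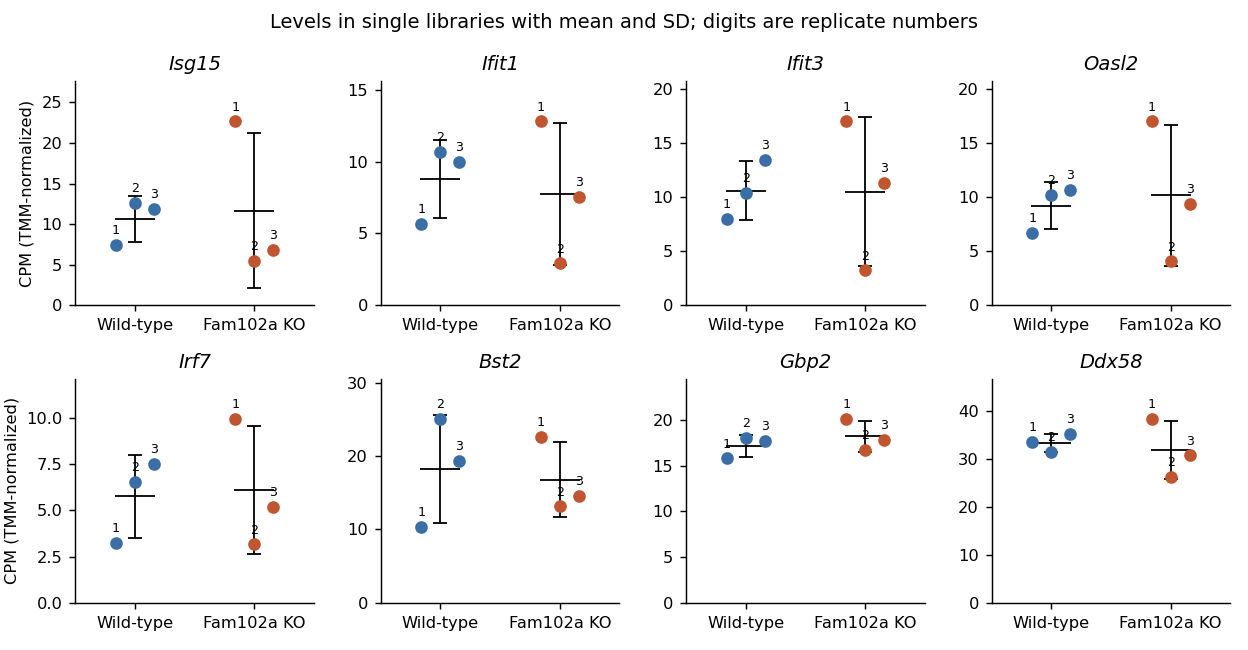
CPM of 8 members in each library, with the mean and SD of each genotype (n = 3) and the replicate number beside each point. *Isg15*, *Ifit1*, *Ifit3*, *Oasl2* and *Irf7* have KO1 highest and KO2 lowest of the KO libraries, *Bst2* is highest in WT2 at 25.0 CPM, and *Gbp2* stays between 15.8 and 20.1 CPM.

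Between the genotypes, 0 of the 34 members were called at an adjusted p under 0.05 by edgeR's quasi-likelihood test, where 0.0488% of all genes tested were called (8 genes). DESeq2 called 0 members as well, where it called 121 genes in all. At an unadjusted p under 0.05, 0 members were higher and 1 was lower in *Fam102a* KO, where 2.92% of all genes were higher and 3.12% lower. That member was *Ccl5*, at a log2 fold change of −1.34 with an SE of 0.462 (unadjusted p = 0.0179, adjusted p = 0.693, edgeR). Under the alternative settings the adjusted p of *Ccl5* lay between 0.343 and 1.00. Without WT3 the count at an unadjusted p under 0.05 was 0, and without KO1 it was 3, while over all genes it went from 991 to 627 and 832. The groups did not overlap for 2 of the 34 members, where 11.1% of all genes did not overlap. The fitted log2 fold change was below 0 for 22 members and above 0 for 12, with a median of −0.04, and its size was smaller than its own SE for 27. The median was −0.47 with numbers 2 and 3 only and between −0.27 and 0.11 with 1 library left out. Standard errors ran from 0.127 for *Gbp2* to 0.599 for *Isg15*, so that for the most variable members a fold change of moderate size could not have been told from the spread between libraries.

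**Figure D3:**
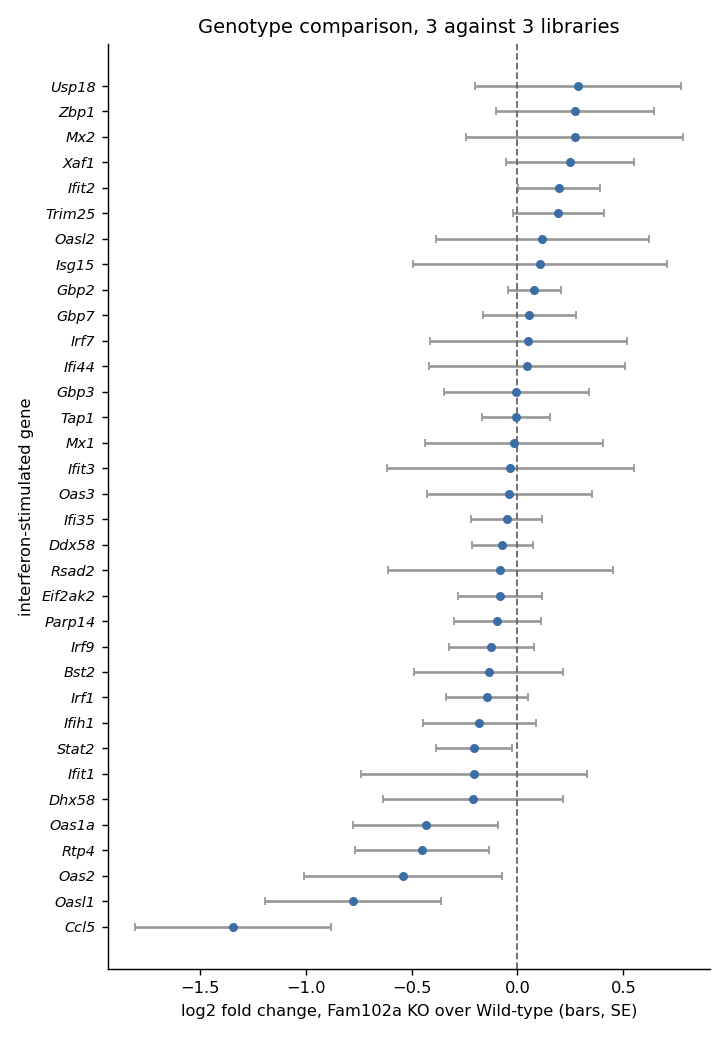
Log2 fold change of each tested member, *Fam102a* KO over Wild-type, with bars of 1 SE, ordered by fold change (edgeR, 3 libraries against 3). *Ccl5* lies lowest at −1.34 and *Usp18* highest at 0.29, and for 27 of the 34 members the bar crosses 0.

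Between the replicate numbers, with genotype in the model, 0 of the 34 members were called at an adjusted p under 0.05 (0.104% of all genes, edgeR) and 0 had an unadjusted p under 0.05 (10.3% of all genes). DESeq2 gave 0 members on both counts, where over all genes it gave 232 and 1038. The smallest unadjusted p was 0.0619, for *Eif2ak2*, and the smallest adjusted p of a member was 0.490. This count moved with single libraries: without WT1 it was 9 members at an unadjusted p under 0.05, without KO1 5 and without WT2 2, while the count over all genes went from 1686 to 1312, 1130 and 1517. A shift shared by both libraries of a number was therefore not detectable in the members with all 6 libraries.

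Set side by side within each number, the 2 libraries differed upwards in number 1 and downwards in number 2. Over the 30 members with a mean above 1 CPM, deviations from the group means correlated with r = −0.23, 0.16 and −0.13 for same-numbered libraries and −0.45 to 0.45 for others, given as a description across genes of the same 6 libraries. In number 1 the level was higher in KO1 than in WT1 for 28 of the 34 members, with a median log2 ratio of 0.55. In number 2 it was lower in KO2 than in WT2 for 34 of 34, with a median of −0.78. In number 3 it was lower in KO3 for 21 of 34, with a median of −0.19. Of all genes tested, 50.1%, 48.3% and 49.7% were higher in the KO library of numbers 1, 2 and 3. The KO library exceeded the Wild-type library more than 2-fold for 11 members in number 1 (4.33% of all genes), and fell short of it by as much for 13 members in number 2 (3.82% of all genes). The 6 members that were not higher in KO1 were *Ifit2*, *Mx1*, *Oas1a*, *Oas3*, *Oasl1* and *Ccl5*. Each of these is 1 library against 1, with no replicate check. On reads scaled by the library total alone, the median of all genes moved to 0.16, 0.03 and 0.20 log2 units in numbers 1 to 3. The counts in numbers 1 and 2 were then 30 and 33 of 34, whereas in number 3 the members turned to 15 lower and 19 higher.

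**Figure D4:**
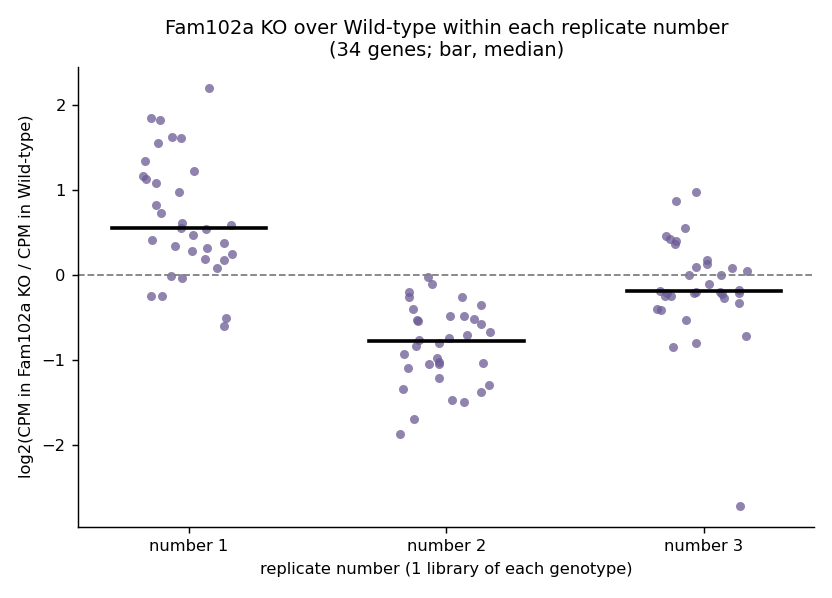
Log2 ratio of CPM in the *Fam102a* KO library over the Wild-type library of the same replicate number, 1 point per member (34 genes), with the median as a bar. The medians are 0.55, −0.78 and −0.19, and every point of number 2 lies below 0.

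The ordering was shared by members of different roles. KO2 was the lowest of the KO libraries for 30 of 34 members (30.9% of all genes), and KO1 was the highest and KO2 the lowest of them for 20 (13.5% of all genes). Among the Wild-type libraries WT1 was lowest for 26 (36.5% of all genes). Over all 6 libraries the highest level was in KO1 for 14 members, in WT2 for 10, in KO3 for 6 and in WT3 for 4. The summed CPM of the 35 members were 292, 392 and 374 in WT1 to WT3 and 433, 248 and 348 in KO1 to KO3. Within the KO group the range was more than 2-fold for 12 members (19.2% of all genes) and within the Wild-type group for 8 (14.8% of all genes).

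Numbers 2 and 3 of both genotypes carry the name of 1 sequencing run in the deposited tables and number 1 does not, so the genotype difference in number 1 was tested against that in numbers 2 and 3. This test was added after the values above were seen, has 1 library of each genotype in number 1 and rests on 2 residual degrees of freedom. It restates the ratios within numbers and is given as a description of them, not as separate evidence. At an unadjusted p under 0.05, 13 of the 34 members had a larger log2 difference in number 1 and 0 a smaller one, where 1.5% of all genes were larger and 1.27% smaller (edgeR). After adjustment 0 members were called, as were 0% of all genes. *Isg15* had the smallest p, at a difference of 2.61 log2 units (unadjusted p = 0.000234, adjusted p = 0.836, edgeR). The others were *Usp18* (2.67), *Rsad2* (2.55), *Ifi44* (2.39), *Irf7* (2.37), *Ifit1* (2.15), *Oasl2* (1.98), *Dhx58* (1.98), *Bst2* (1.81), *Rtp4* (1.60), *Gbp3* (1.5), *Ifih1* (1.13) and *Tap1* (0.65). The difference was above 0 for 31 members, with a median of 0.81 (−0.01 for all genes), and below 0 for *Ifit2*, *Mx1* and *Oas3*. The count was 6 without WT2, 8 without WT3, 12 without KO2 and 20 without KO3, while over all genes, in either direction, it went from 454 to 436, 277, 1082 and 958. After adjustment DESeq2 called *Isg15* (adjusted p = 0.00852) among 14 genes in all, and edgeR with no filter on low counts called 7 members among 119 genes in all. The run and number 1 cannot be told apart.

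Transcripts of the interferons themselves were at or near 0. Of 21 interferon genes, *Ifnb1* and 10 others had 0 reads in all 6 libraries, which allows up to 3 reads each, and only *Ifnz* passed the filter, with 5 reads in KO1 and 10 to 18 in the others. The type I receptor chains were steady, *Ifnar1* between 39.5 and 51.5 CPM and *Ifnar2* between 17.4 and 22.1 CPM. Another receptor chain of the list, *Il10rb*, was not, and ran from 16.4 CPM in WT1 to 36.6 CPM in WT2. It was the 1 gene of the list with an unadjusted p under 0.05 between the replicate numbers (10.3% of all genes), and 0 were called. Of the 10 receptor and Jak-Stat genes, 0 were called and 0 had an unadjusted p under 0.05 between the genotypes. The 12 genes listed as induction machinery include relays of the sensors and restraints on them, and *Samhd1* is a restraint. Of these 12, 1 (*Samhd1*) was lower in *Fam102a* KO at an unadjusted p under 0.05 (3.12% of all genes) and 0 were called. Between the replicate numbers 1 of them (*Ikbke*) had an unadjusted p under 0.05 (10.3% of all genes) and 0 were called. Of 6 negative regulators such as *Socs1*, 0 had an unadjusted p under 0.05 in any of the 3 comparisons.

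A further list of 65 genes known to be induced by interferon, outside the set above, had 59 tested members. Of these 46 were higher in KO1 than in WT1 (50.1% of all genes) and 49 lower in KO2 than in WT2 (51.6% of all genes). Between the genotypes 0 were called (0.0488% of all genes). At an unadjusted p under 0.05, 1 of the 59 was lower in *Fam102a* KO, where 3.12% of all genes were lower. It was *Gbp6* (log2 fold change −0.98, unadjusted p = 0.0364, edgeR). For the larger difference in number 1, at an unadjusted p under 0.05, the count was 3 of 59 (1.5% of all genes, edgeR). They were *Irgm1*, *Trim30a* and *Iigp1*, GTPases and a TRIM protein of cell-intrinsic defence. Of 12 antigen presentation genes, 12 were lower in KO2 than in WT2 and 7 were higher in KO1 than in WT1. *B2m*, the light chain of class I molecules, was at 123, 155 and 137 CPM in the Wild-type libraries and at 106, 117 and 107 CPM in the KO libraries (log2 fold change −0.33, unadjusted p = 0.0212, adjusted p = 0.725, edgeR). The 10 tested NF-kB response genes, a second inflammatory programme, had 4 higher in KO1 than in WT1 and 6 lower in KO2 than in WT2. Between the genotypes 2 of the 10 (*Vcam1* and *Icam1*) were lower in *Fam102a* KO at an unadjusted p under 0.05 (3.12% of all genes, edgeR). By the same measure 1 (*Ccl7*) was higher (2.92% of all genes), and 0 were called.

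Markers of other cell types were read in the same libraries. Among the cell type lists the osteoblast markers had the highest summed CPM, 16502 to 20986. *Col1a1*, a type I collagen gene, made up a large part of this sum, at 5737 to 8629 CPM. *Bglap*, a marker of mature osteoblasts, was at 0 reads in 4 of the 6 libraries, and how its reads were placed was not checked. Of the 8 tested osteoblast markers, 3 were lower in *Fam102a* KO at an unadjusted p under 0.05 (3.12% of all genes, edgeR). They were *Alpl* (log2 fold change −1.67), *Sp7* (−0.98) and *Runx2* (−0.40). By the same measure 1 was higher, *Postn* (0.52, 2.92% of all genes), and 0 were called. Macrophage markers (17 genes) were present in every library, with summed CPM of 1120, 3213 and 1169 in WT1 to WT3 and 587, 1830 and 2530 in KO1 to KO3, and none at 0. KO1 had the least macrophage signal and the highest summed level of the interferon-stimulated genes. In number 2 both were lower in KO2, with 17 of 17 markers below WT2. In number 3 the macrophage sum was higher in KO3 (2530) than in WT3 (1169). The sum of the interferon-stimulated genes was lower there, at 348 against 374. Lymphocyte and plasmacytoid dendritic cell markers (10 genes) had at most 15 reads in any library, 0 of them passed the filter, and *Nkg7* was at 0 in 5 libraries. Endothelial markers (7 genes) ranged from 46.7 to 81.2 summed CPM in the Wild-type libraries and from 13.7 in KO2 to 100.01 in KO1, mainly through *Pecam1*, which had 1077 reads in KO1 and 16 in KO2. *Cldn5*, a defining endothelial marker, had 0 to 2 reads. The part of these cells in the differences between libraries was not tested, and fewer cells of a type and less RNA per cell cannot be told apart in bulk RNA.

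**Figure D5:**
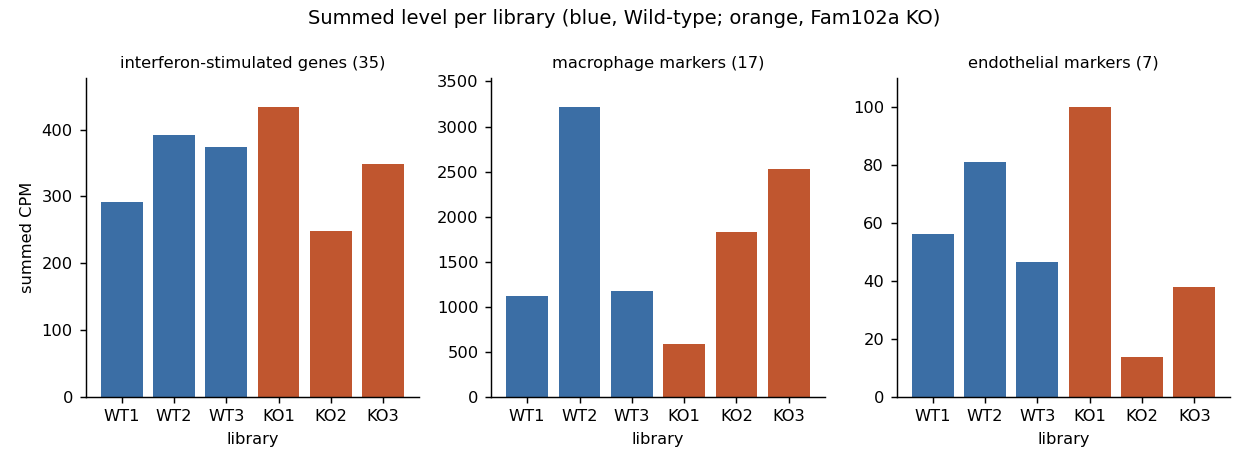
Summed CPM per library of the 35 interferon-stimulated genes, the 17 macrophage markers and the 7 endothelial markers, each on its own axis from 0. KO1 is highest for the interferon-stimulated genes (433) and lowest for the macrophage markers (587), and KO2 is lowest for the interferon-stimulated genes (248) and for the endothelial markers (13.7).

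Other properties of the libraries stood beside these values. WT1 and KO1 were the shallowest, with 12212169 and 12934473 gene reads. The part of depth in the differences between libraries was not tested. The share of reads in introns was 45.8 to 46.4% in KO1 and KO3 and 52.2 to 54.5% in the other 4 libraries. On exon reads alone 29 of 34 members were higher in KO1 than in WT1 and 33 of 34 lower in KO2 than in WT2. *Fam102a* itself had 124, 206 and 207 exon reads in the Wild-type libraries and 123, 174 and 157 in the KO libraries, but these totals include exons outside the deletion and do not check the labels. The median share of uniquely placed reads was 96.3% over the 35 members, and 25 of them were above 90%. It was 55.6% for *Oas1a*, 65.4% for *Rtp4* and 74.3% for *Dhx58*. Exons of *Rtp4* share 296 bases with another gene on the same strand and those of *Tap1* share 212 bases with *Psmb9* on the opposite strand, and reads of such pairs cannot be told apart where strand was not used.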

How the data were processed

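The authors made cDNA with a SMART-seq v4 kit, sequenced it on an Ion Proton sequencer and mapped and counted reads on mm10 with CLC Genomics Workbench 12.0.3. Mapping settings, annotation release and strand use: not given in the sources used here. Deposited counts are whole gene reads, the sum of exon and intron reads. The deposited RPKM, computed by the authors, equal exon reads per exon length and gene reads of the library, which was checked by recomputation.

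Gene reads of 3 Wild-type and 3 *Fam102a* KO libraries, grouped by their titles, were fitted in edgeR 4.0.16 (R 4.3.3). Genes passed edgeR's filter (minimum count 10, minimum total 15). Scaling was by TMM, the test was the robust quasi-likelihood test, and p-values were adjusted by Benjamini-Hochberg at 0.05 over all 16391 genes. Standard errors are the log2 fold change divided by the square root of F. The replicate number was tested with genotype in the model. Both tests were first tested on simulated data with known changes. DESeq2 1.42.0 and limma 3.58.1 on log2(RPKM + 0.1) and log2(RPKM + 1) were alternatives, beside other scalings, filters, uniquely placed or exon reads, the replicate block, numbers 2 and 3 only and each library left out. Within-number counts in other units and the test of number 1 against numbers 2 and 3 were added after the values were seen.

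The members and lists were chosen with earlier results of these data known. All members may be named, and of each other list up to 4 genes by the smallest unadjusted p, with *Ifnar1*, *Ifnar2*, *Ifnb1*, *Fam102a* and markers at 0 always. The values of 1 of the genes always named are not reported here. *Col1a1* and *Pecam1* were named after their values were seen. Whether the numbers pair the libraries was checked over 14619 genes: deviations from the group means correlated with r = 0.23, 0.19 and 0.20 for same-numbered libraries and −0.23 to 0.05 for others, so the numbers pair the libraries by this check over all genes. Over the members alone they did not (the r values stand with the results), and no source says what a number marks. Intervals and floors cover counting error only. Promoters and exon overlaps came from RefSeq (GRCm38.p6) and GENCODE M21.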

Additional observations from a re-analysis of the deposited data

How the results depend on the processing

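The count of 0 members called between the genotypes and between the replicate numbers was 0 under each alternative setting run, and all 1208 results for single members kept their side of the threshold. Calls over all genes between the genotypes were 121 with DESeq2 and 340 with no filter. They were 0 with either limma setting, with numbers 2 and 3 only and without KO1. Calls over all genes between the replicate numbers were 232 with DESeq2, 1275 with no filter and 0 on exon reads only. Where no gene at all was called, a 0 for the members says nothing particular about them. The count at an unadjusted p under 0.05 between the genotypes (1) was 2 with no filter, 0 with at least 10 reads in every library and 5 with numbers 2 and 3 only, and it ran from 0 to 3 when 1 library was left out. Over all genes the same count (991) was 2050, 913 and 853 under the first 3 settings. It ran from 627 to 1539 when 1 library was left out. The replicate block gave 1 member (1366 of all genes) and a median log2 fold change of −0.09 for the members, and changed no call of a member. The median log2 fold change (−0.04) was −0.47 with numbers 2 and 3 only, 0.06 and 0.04 on log2(RPKM + 0.1) and log2(RPKM + 1), and −0.27 to 0.11 with 1 library left out, so its sign is not settled. The count at an unadjusted p under 0.05 between the replicate numbers (0) was 4 with no filter, 2 on uniquely placed reads and 1 for number 1 against the mean of 2 and 3, and it ran from 0 to 9 when 1 library was left out. Over all genes this count (1686) was 3597, 1640 and 1820 under the first 3 settings. It ran from 1130 to 2492 when 1 library was left out. The 13 members with a larger difference in number 1 ranged from 6 to 20 when a library of numbers 2 and 3 was left out. On the authors' RPKM, 13 members instead of 21 were lower in KO3 than in WT3. The cause of these shifts was not tested. Members with few reads, such as *Mx1*, *Oasl1*, *Ccl5* and *Cxcl10*, are limited by depth.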
